A study of Mus musculus with 2 samples.

Results

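The 10 genes described here are immediate early genes of the AP-1 and Egr families and their close partners: Fos, Fosb, Fosl2, Jun, Junb, Jund, Egr1, Atf3, Ier2 and Jdp2. They were taken by symbol from the gene list of the count matrices, and all 10 were found among the 27998 genes counted. Their transcripts were counted as unique molecular identifiers (UMIs) in single cells of mouse lung and summed within endothelial subtypes, alveolar type 2 (AT2) cells, fibroblasts and smooth muscle cells.

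The KO library came from knockout C57BL/6J mice aged 10 to 12 weeks, in a model of hereditary hemorrhagic telangiectasia 2, in which fragile vessels link arteries and veins directly. The WT library came from wild-type C57BL/6J mice of the same age. Both were handled alike per the labels: lungs stood in dispase (5 mg/ml) at room temperature for 1 hour, were minced, and were shaken with DNase I (50 µg/ml) for 30 min. Cells were then sorted for VE-cadherin and against CD45 before 10x Genomics 3' v3 libraries were made. The labels name neither the deleted gene nor a Cre line or the number of animals per library. With 1 library in each group there is no replicate check, and no difference was tested. All intervals are 95% and cover counting error only.

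AP-1 is a dimer of basic leucine zipper proteins, typically a Fos protein (Fos, Fosb, Fosl2) bound to a Jun protein (Jun, Junb, Jund). Together with the zinc finger factor Egr1 and the nuclear protein Ier2, many of these genes are transcribed within minutes of a stimulus such as serum, stretch or stress, without new protein synthesis. Atf3 is a stress-induced member of the same protein class, and Jdp2 binds Jun proteins and is known mostly as a repressor of AP-1 sites. Enzymatic dissociation of a tissue is itself a known trigger, so in single-cell data these transcripts are commonly read as a gauge of the handling of the cells. These libraries hold no cells that were not dissociated, so the part of dissociation in any level below was not tested.

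Positions are from GENCODE M21 on GRCm38, the mm10 build of the files. The Fos family members are Fos (ENSMUSG00000021250, chromosome 12, 85473890 to 85477273, plus strand), Fosb (ENSMUSG00000003545, chromosome 7, 19302696 to 19310051, minus strand) and Fosl2 (ENSMUSG00000029135, chromosome 5, 32135801 to 32157842, plus strand). The Jun family members are Jun (ENSMUSG00000052684, chromosome 4, 95049034 to 95052222, minus strand), Junb (ENSMUSG00000052837, chromosome 8, 84974484 to 84978718, minus strand) and Jund (ENSMUSG00000071076, chromosome 8, 70698949 to 70700616, plus strand). The others are Atf3 (ENSMUSG00000026628, chromosome 1, 191170296 to 191218039, minus strand), Ier2 (ENSMUSG00000053560, chromosome 8, 84661331 to 84662852, minus strand), Jdp2 (ENSMUSG00000034271, chromosome 12, 85599027 to 85639878, plus strand) and Egr1 (ENSMUSG00000038418). Fos and Jdp2 lie on the same chromosome, as do Junb, Jund and Ier2. For each member, 0 genes had exons overlapping on the same strand.

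After filtering, the KO library held 1314 of 2196 barcodes and the WT library 2708 of 3482, with medians of 8654 and 5423 UMIs per cell, and 6 barcodes were in both libraries. Before filtering, 30.5% of KO and 15.1% of WT barcodes were over the limit of 10% mitochondrial UMIs, and the part of this difference in the results was not tested. Besides the classes described, clusters with macrophage markers (25 KO and 82 WT cells) and neutrophil markers (31 KO and 45 WT cells) were present in spite of the sort. The members were not ranked in these or in other small clusters, such as one with pericyte markers. Although the labels call the samples lung endothelial cells, endothelial-like cells made up 37.7% of KO cells and 55.6% of WT cells. Ptprc, which encodes CD45, was at 0 UMIs in every class described except WT AT2-like cells, at 0.142 UMIs per 1000000 of the class total (CPM). Cdh5, which encodes VE-cadherin, stood between 805 and 3066 CPM across the endothelial classes of KO, and between 819.9 and 2865 CPM across those of WT. In AT2-like cells it was at 4.58 CPM in KO and 9.93 CPM in WT. Acvrl1, the gene known to underlie this type of the disease, stood at 1248 CPM in KO and 1303 CPM in WT gCap-like cells, at 1738 and 1906 CPM in aCap-like cells and at 622 and 835 CPM in venous-like cells, and reads near the 3' end need not cover what was deleted. The KO library held cells of both sexes by their transcripts (762 with Y-linked transcripts alone and 200 with Xist alone), whereas the WT library held 9 cells with Y-linked transcripts alone and 2381 with Xist alone. Sex and genotype therefore cannot be told apart in most classes.

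Stretches of promoter are shown for Fos, Fosb and Junb, each lower in KO in at least 3 of the classes described below, and for Jun and Jdp2, which were not. They are RefSeq sequences of GRCm38.p6, read in the direction of the gene from a window of 250 bases before to 50 after each annotated start, and 8 of the 10 members had such a window. The capitals mark TGACG, the core of a cAMP response element, except in Jun, where they mark TGACATCA, a site of the kind that Jun and Atf2 proteins bind.
Fos, 129 bases before the start, chr12:85473731-85473795, plus strand: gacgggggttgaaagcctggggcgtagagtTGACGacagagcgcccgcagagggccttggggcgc
Fos, 66 bases before the start, chr12:85473794-85473858, plus strand: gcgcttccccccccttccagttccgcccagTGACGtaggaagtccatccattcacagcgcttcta
Fosb, 60 bases before the start, chr7:19310071-19310135, minus strand: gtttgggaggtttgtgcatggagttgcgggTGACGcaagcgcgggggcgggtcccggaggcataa
Junb, 106 bases before the start, chr8:84978820-84978884, minus strand: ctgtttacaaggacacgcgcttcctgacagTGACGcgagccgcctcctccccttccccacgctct
Jun, 45 bases before the start, chr4:95052230-95052297, minus strand: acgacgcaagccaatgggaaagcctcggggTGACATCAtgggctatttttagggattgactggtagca
Jdp2, 114 bases before the start, chr12:85599272-85599336, plus strand: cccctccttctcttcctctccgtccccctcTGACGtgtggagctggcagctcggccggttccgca
Searched on both strands, TGACG was found for Fos, Fosb, Junb, Atf3 and 1 of the 3 starts of Jdp2, and in 20.8% of all 32851 promoter windows of that length. TGACATCA was found for Jun and in 3.62% of all windows. The full element TGACGTCA, which contains TGACG, the AP-1 site TGANTCA and the CArG box, the site of serum response factor, were found for 0 of the members with a window, and in 1.79%, 7.81% and 1.63% of all windows. A match describes the letters in this window and is not evidence of binding. Sites outside the windows were not searched, so a count of 0 does not mean that a gene lacks the site.

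General capillary (gCap-like) cells, the progenitor-like endothelial cells of the alveolar capillaries, were 266 in KO and 1002 in WT. Egr1 had the widest difference: 16.7 CPM (10.3 to 25.5) in KO, from 21 UMIs, against 182 CPM (169 to 196) in WT, from 705 UMIs. The ratio of KO over WT was 0.0918 (0.0565 to 0.142). Fos stood at 10.3 CPM (5.51 to 17.7) in KO and 76.6 CPM (68.2 to 85.9) in WT, a ratio of 0.135 (0.0710 to 0.234). Junb, the Jun protein whose transcription follows stimuli most like that of Fos, stood at 85.1 CPM (69.8 to 103) in KO and 217 CPM (202 to 232) in WT, a ratio of 0.393 (0.318 to 0.481). None of these 3 pairs of intervals overlapped.

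Fosl2 and Jdp2 lay the other way in gCap-like cells. Jdp2 stood at 133 CPM (113 to 155) in KO and 57.3 CPM (50.0 to 65.3) in WT, a ratio of 2.32 (1.89 to 2.85). Fosl2, a Fos protein that is induced later and stays longer than Fos, stood at 48.5 CPM (37.1 to 62.4) in KO and 25.03 CPM (20.3 to 30.5) in WT, a ratio of 1.94 (1.38 to 2.70). Jun, at 1394 CPM in KO and 1854 CPM in WT, Jund, at 535 and 619 CPM, Ier2, at 352 and 452 CPM, and Atf3, at 16.7 and 21.9 CPM, differed by less than 1.5-fold. Fosb had 2 UMIs in KO and 45 in WT, and its mean level was under the minimum of 10 CPM over both libraries, which a gene had to reach together with 20 UMIs.

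By a rule of at least 1.5-fold among genes past that minimum, 3 of the 10 members were lower in KO gCap-like cells and 2 were higher, where 7.84% of the 8520 genes tested were lower and 3.67% higher. The median log2 ratio of the 9 members past the minimum was -0.39, against -0.02 over all genes tested. Clusters within gCap-like cells are called here by Aplnr and Esm1, genes among their leading ones, though a haemoglobin gene ranked first in each. Esm1 set the Aplnr cluster apart from the Esm1 cluster (70.9 against 474 CPM in KO, 84.1 against 825 in WT). Aplnr differed little between them (325 against 247 CPM in KO, 342 against 299 in WT). In the Aplnr cluster, 4 of the 9 members past the minimum were lower in KO and 2 higher, where 9.02% of genes were lower and 4.56% higher. In the Esm1 cluster 4 were lower and 1 higher, where 17.5% were lower and 10.0% higher. Egr1 stood at 19.1 CPM in KO and 163 CPM in WT in the Aplnr cluster, and at 9.61 and 212 CPM in the Esm1 cluster. Jdp2 stood at 149 and 55.5 CPM in the first and at 83.3 and 60.1 CPM in the second, where its difference was under 1.5-fold.

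RNA of other cells also differed between these gCap-like groups. All 9 AT2 markers were seen in both, summing to 3097 CPM in KO and 5468 CPM in WT, and the 5 erythrocyte markers summed to 74.00 CPM in KO, with 4 seen and Alas2 at 0, and 2796 CPM in WT, with all 5 seen. Sftpc, the surfactant gene that marks AT2 cells, stood at 1.01% of its AT2 level in KO gCap-like cells and 1.78% in WT. AT2 RNA at that share would hold 0.377 CPM of Egr1 in KO and 1.26 CPM in WT, and 0.320 and 1.07 CPM of Fos. The part of the erythrocyte RNA in these differences was not tested. Clustered at resolution 0.5, no endothelial cluster stayed unnamed, and gCap-like cells were 391 in KO and 1020 in WT, against 266 and 1002 otherwise. In this wider set of KO cells the log2 ratio was -2.52 for Egr1 (otherwise -3.44), -1.98 for Fos (otherwise -2.89) and 2.01 for Fosl2 (otherwise 0.96). These shifts are therefore not of the same cells.

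**Figure D1:**
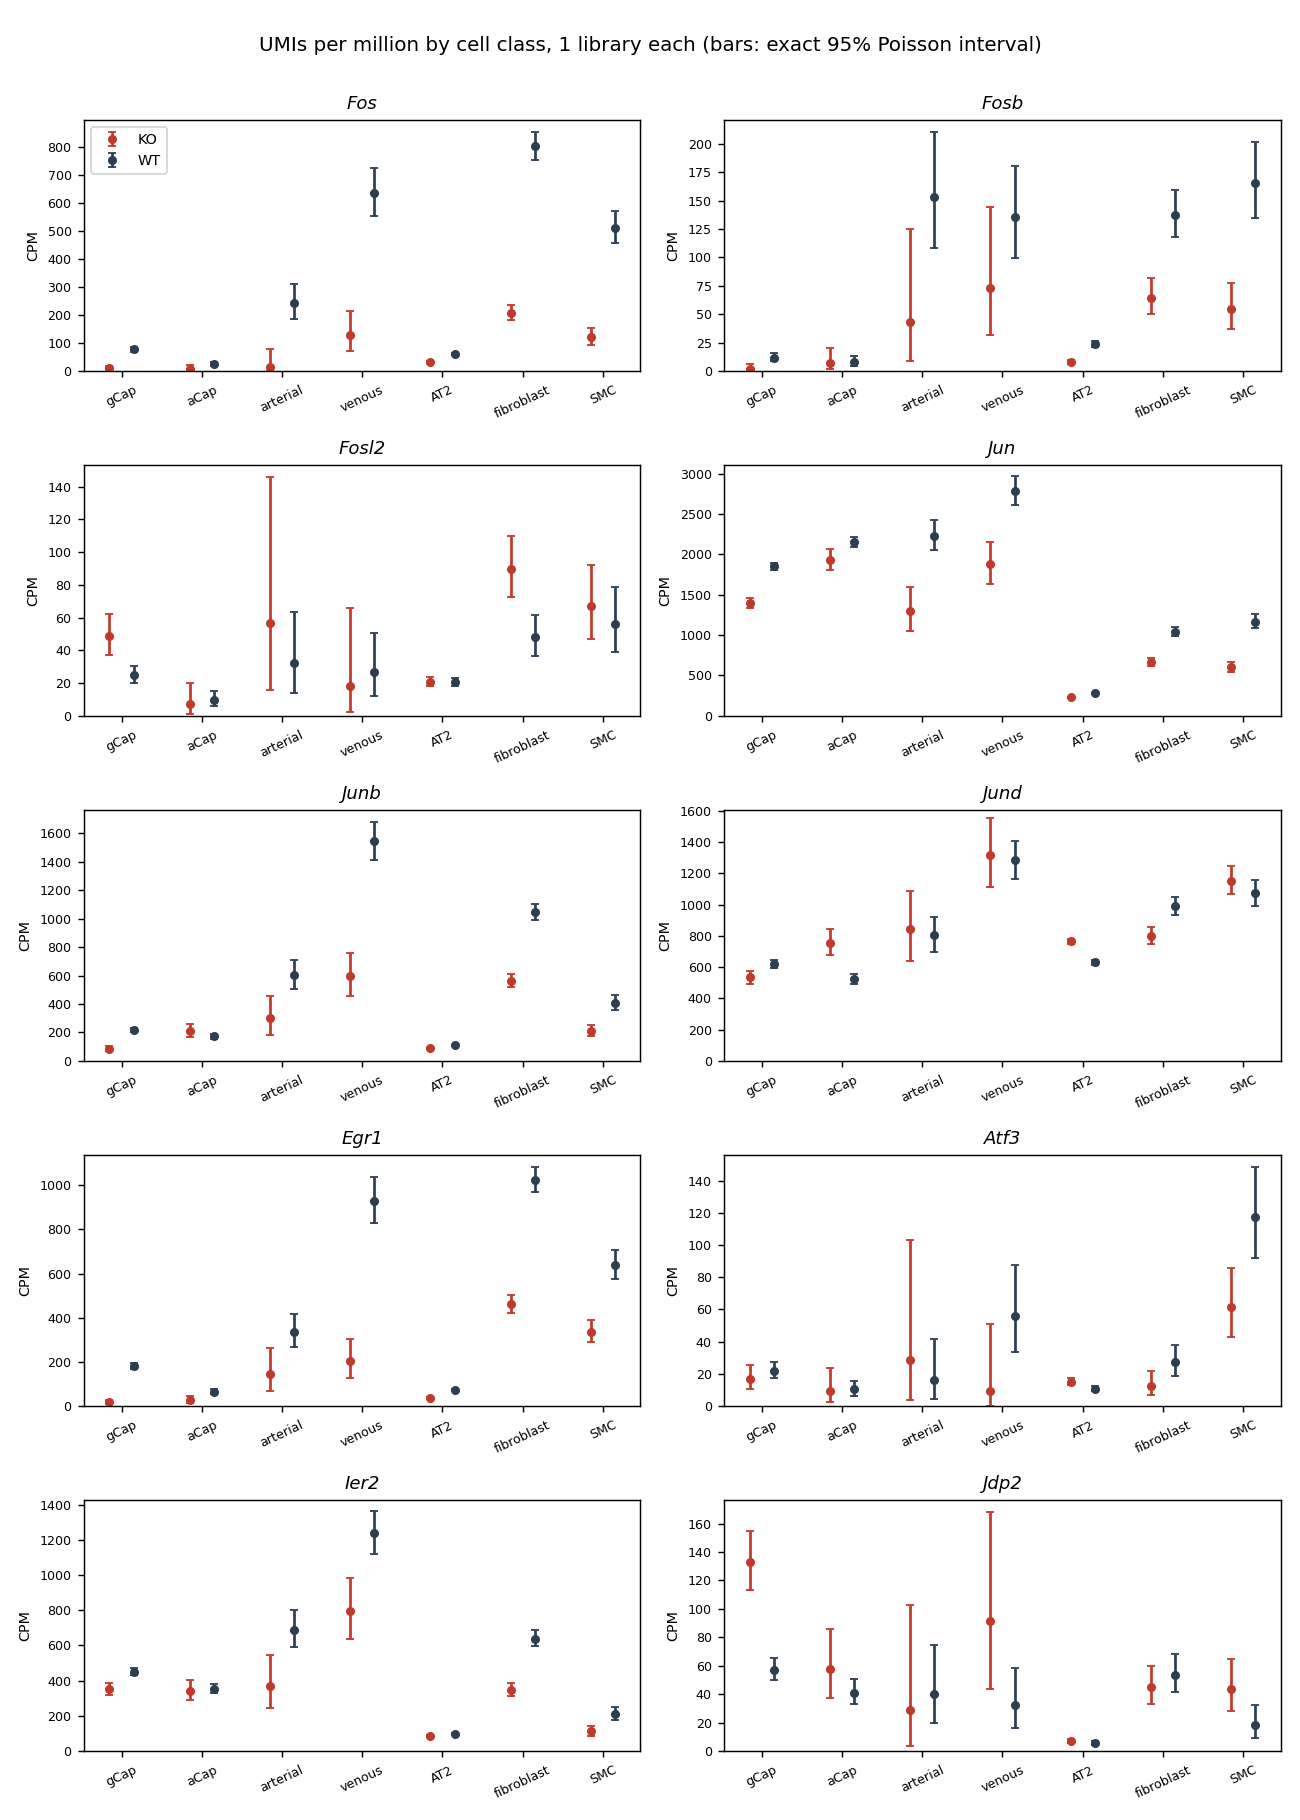
Level of each of the 10 genes in UMIs per 1000000 of the class total (CPM) by cell class, with KO in red left of WT in dark blue. Points are 1 library each and bars exact 95% Poisson intervals of counting. Fos and Egr1 are lower in KO in each class shown, from gCap-like to smooth muscle-like cells, while Jund differs by less than 1.5-fold in each.

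Aerocytes (aCap-like cells, the large capillary cells of gas exchange) were 69 in KO and 393 in WT. Among the classes described, they had the lowest Fos level in WT and, with venous-like cells, the highest Jun level in KO. Jun stood at 1936 CPM (1807 to 2072) in KO and 2151 CPM (2089 to 2214) in WT, a ratio of 0.900 (0.835 to 0.969). Egr1 stood at 25.5 CPM (12.7 to 45.7) in KO and 62.9 CPM (52.7 to 74.5) in WT, a ratio of 0.406 (0.198 to 0.750), with intervals apart. Fos had 3 UMIs in KO, or 6.96 CPM (1.44 to 20.3), and stood at 24.9 CPM (18.6 to 32.5) in WT, a ratio of 0.280 (0.0560 to 0.864) whose level intervals overlap. Of the 7 members past the minimum these 2 were lower in KO by 1.5-fold and 0 were higher, where 13.0% of the 8341 genes tested were lower and 7.92% higher. Junb, lower in KO gCap-like cells, stood at 209 CPM (168 to 257) in KO and 172 CPM (155 to 190.2) in WT aCap-like cells, where the 5 highest cells held 48.9% of the KO UMIs. Jund stood at 757 CPM (677 to 843) in KO and 525 CPM (495 to 557) in WT, a ratio of 1.44 (1.27 to 1.63), just inside the 1.5-fold limit. With cells thinned to 1500 UMIs, Fos had no KO UMI and gave no fold beyond the floor of 3 counts. All 9 AT2 markers were seen in aCap-like cells, summing to 1970.5 CPM in KO and 4070.2 CPM in WT, and 4 of 5 erythrocyte markers, with Alas2 at 0, summing to 39.5 and 98.5 CPM. Their part in the result was not tested. Summed over the 10 genes, aCap-like cells had 3358 CPM in KO and 3359 CPM in WT, a ratio of 1.00 (0.944 to 1.06), whereas gCap-like cells had 2592 and 3516 CPM, a ratio of 0.737 (0.710 to 0.766). In AT2-like cells the ratio of this sum was 0.987 (0.965 to 1.01). Jun and Jund make up most of the aCap-like sum. Without Jund and Jdp2 the ratio was 0.911 (0.853 to 0.972) in aCap-like cells and 0.678 (0.649 to 0.709) in gCap-like cells. In AT2-like cells it was then 0.768 (0.743 to 0.794), so the ratio near 1 of their full sum rests on Jund and Jdp2.

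Large-vessel endothelium was scarce in KO, with 12 arterial-like and 13 venous-like cells against 51 each in WT, so these classes are given by level alone. Venous-like cells of WT had the highest Junb and Ier2 of the WT classes described, and the second highest Fos and Egr1. Their Fos interval overlapped that of smooth muscle-like cells and their Egr1 interval that of fibroblast-like cells. Egr1 stood at 201 CPM (126 to 305) in KO and 929 CPM (829 to 1037) in WT venous-like cells, and Fos at 128 CPM (70.05 to 215) in KO and 634 CPM (552 to 725) in WT. Junb stood at 595 CPM (459 to 758) in KO and 1545 CPM (1416 to 1684) in WT. The intervals of all 3 were apart. Few cells carried the KO signal: the 5 highest of the 13 held 86.4% of Egr1 UMIs and 66.2% of Junb UMIs. In arterial-like cells Egr1 stood at 143 CPM (68.4 to 262) in KO and 335 CPM (267 to 416) in WT, and Fos had 1 UMI in KO and 60 in WT, a ratio of 0.0588 (0.00147 to 0.341). Jund stood at 841 CPM in KO and 804 CPM in WT arterial-like cells, and at 1318 and 1283 CPM in venous-like cells, with overlapping intervals in both.

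An endothelial cluster that stayed unnamed held 128 KO and 5 WT cells, and was led by Igfbp3, Peg3, Apln and Trp53i11. The 10 genes and the stress lists had been left out of the clustering, so their levels in it could be set beside those of the other 367 KO endothelial-like cells. Since nearly all of its cells came from KO, a cell type and a trait of the KO library cannot be told apart. Acvrl1 stood at 429 CPM in its KO cells, against 1248 CPM in KO gCap-like cells, and the BMP target gene Id1 at 32.8 against 867 CPM. Fosl2 stood at 205 CPM (173 to 242) in the cluster and 37.6 CPM (29.5 to 47.3) in the other KO endothelial-like cells, a ratio of 5.45 (4.09 to 7.33). Jdp2 stood at 192 CPM (161 to 228) in the cluster and 109 CPM (94.6 to 124) in the others, a ratio of 1.77 (1.41 to 2.20). The cluster also had more Fos, at 39.9 CPM (26.5 to 57.7) against 16.5 CPM (11.3 to 23.3), and more Egr1, at 68.4 CPM (50.4 to 90.7) against 37.1 CPM (29.04 to 46.7). Jun was the reverse, at 788 CPM (724 to 856) in the cluster and 1499.8 CPM (1446 to 1555) in the others, a ratio of 0.525 (0.479 to 0.576). Fosb, with 2 UMIs in the cluster and 17 in the others (2.85 and 8.76 CPM), was under the minimum. Of the members past it, 4 were at least 1.5-fold higher in the cluster and 1 lower. Of the 8387 genes tested, 12.6% were higher and 19.7% lower.

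The cells of that cluster were not alike in sex to the other KO endothelial-like cells, with 58 of Xist alone and 45 of Y-linked transcripts alone, against 18 and 220. Fosl2 stood at 304 CPM (239 to 382) in cluster cells with Y-linked transcripts alone and 126 CPM (92.2 to 168) in those with Xist alone. In the others it stood at 33.1 CPM (23.8 to 44.9) and 39.4 CPM (10.7 to 101). The second rests on 4 UMIs, and its interval overlaps that of the cluster. For Fos, cluster and other cells had overlapping intervals in both kinds, with 0 UMIs in the others with Xist alone. For Egr1 and Jdp2 they were apart with Y-linked transcripts alone and overlapped with Xist alone. Jun was low in both kinds of cluster cell, at 798 and 742 CPM, but in the others it stood at 1568 CPM with Y-linked transcripts alone and 709 CPM in the 18 with Xist alone. Among cells with Xist alone, Jun in the cluster was therefore not lower than in the others. Over all endothelial-like cells, which include this cluster, 5 members were lower in KO and 2 higher, where 6.90% of the 8638 genes tested were lower and 4.46% higher, and Fosl2 stood at 82.1 CPM in KO and 20.5 CPM in WT.

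**Figure D2:**
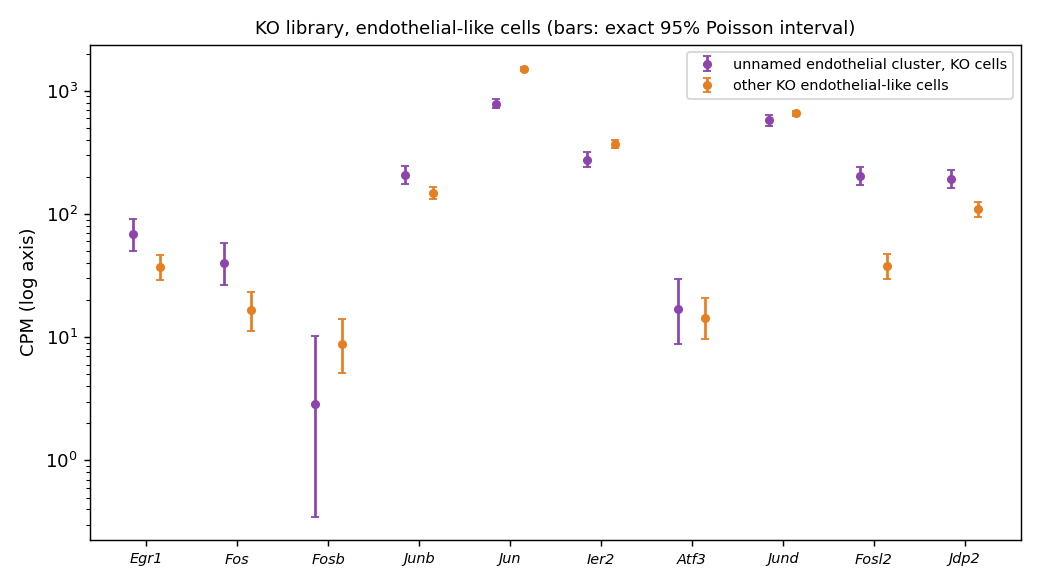
Level of each gene in CPM, on a log axis, in the 128 KO cells of the unnamed endothelial cluster (purple, left) and in the other 367 KO endothelial-like cells (orange, right), with exact 95% Poisson intervals. Fosl2 and Jdp2 are higher in the cluster and Jun is lower.

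AT2-like cells, the surfactant-producing epithelium, passed the sort in both libraries, with 599 in KO and 825 in WT. Their surfactant transcripts fill much of the library (Sftpc alone stood at 183225 CPM in KO and 181515 CPM in WT), which lowers the share left for every other gene. In WT, the levels of Jun, Junb, Ier2 and Jdp2 were lower here than in any other class described, with intervals apart. Fos stood at 31.9 CPM (28.6 to 35.4) in KO and 59.99 CPM (56.01 to 64.2) in WT, a ratio of 0.531 (0.468 to 0.603). Egr1 stood at 37.5 CPM (33.9 to 41.3) in KO and 70.4 CPM (66.1 to 74.9) in WT, a ratio of 0.532 (0.473 to 0.597). Fosb stood at 7.88 CPM (6.30 to 9.73) in KO and 23.8 CPM (21.3 to 26.5) in WT, a ratio of 0.331 (0.258 to 0.420). These 3 members were lower in KO and 0 were higher, where 2.38% of the 7360 genes tested were lower and 1.90% higher. Jund stood above WT, at 766 CPM in KO and 629 CPM in WT, a ratio of 1.22 (1.18 to 1.25), and Jun, Junb, Ier2, Fosl2 and Atf3 also differed by less than 1.5-fold. Jdp2, at 6.69 CPM in KO and 5.46 CPM in WT, was under the minimum level. All 5 erythrocyte markers were seen, summing to 2047 CPM in KO and 794 CPM in WT, and all 10 pan-endothelial markers, summing to 116 and 179 CPM, and their part in the result was not tested. By count the 2 AT2-like clusters were near each other. In the larger, 3 were lower and 0 higher, where 3.04% of genes were lower and 2.12% higher. In the smaller, 2 of the 7 past the minimum were lower and 0 higher, where 2.92% and 2.14% of genes were, and Fosb was under the minimum. The size of the difference was not alike. Summed over the members without Jund and Jdp2, the ratio was 0.670 (0.644 to 0.698) in the larger and 0.886 (0.835 to 0.940) in the smaller. Over all 10 genes it was 0.902 (0.878 to 0.927) and 1.04 (1.00 to 1.08). At a filter of 1000 genes and 5% mitochondrial UMIs, the log2 ratio of Egr1 was -1.58 (otherwise -0.91).

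The AT2 result differed by the sex of the KO cells. Among the 398 KO AT2-like cells with Y-linked transcripts alone, Fos stood at 27.6 CPM (24.1 to 31.5), and among the 84 with Xist alone at 60.8 CPM (49.8 to 73.5), the level of the WT cells. Egr1 stood at 33.95 CPM (30.01 to 38.3) with Y-linked transcripts and 53.3 CPM (43.04 to 65.3) with Xist alone, both below the 70.4 CPM of WT. Fosb stayed low in both, at 8.49 and 6.31 CPM. With Xist alone in both libraries, 1 member (Fosb) was lower and 1 (Atf3, at 25.8 CPM in KO) was higher by 1.5-fold. The lower Fos of KO AT2-like cells was therefore seen in cells with Y-linked transcripts and not in those with Xist alone.

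**Figure D3:**
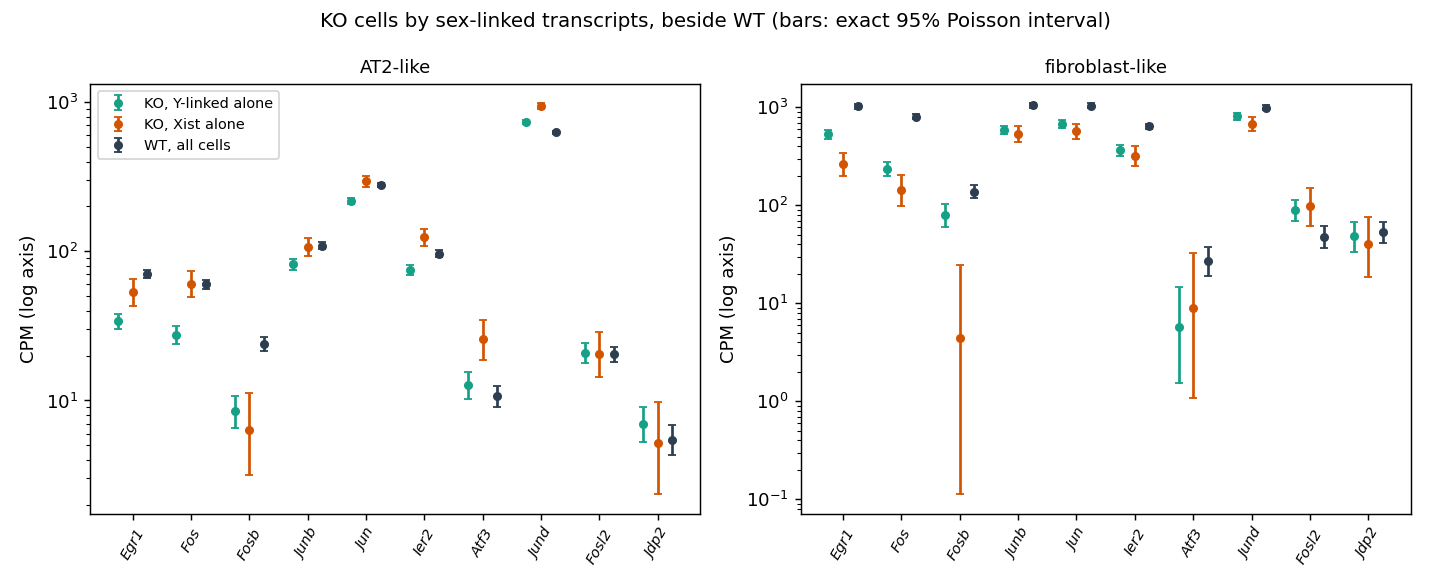
Level of each gene in CPM, on a log axis, in KO cells with Y-linked transcripts alone (green), KO cells with Xist alone (orange) and all WT cells (dark blue), in AT2-like cells on the left and fibroblast-like cells on the right, with exact 95% Poisson intervals. In AT2-like cells the orange points of Fos and Junb lie at the WT level, and in fibroblast-like cells both KO points of Egr1, Fos and Junb lie under WT.

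Fibroblast-like cells, 85 in KO and 134 in WT, had the highest Fos and Egr1 of the classes described in both libraries. In KO, however, the Fos interval and in WT the Egr1 interval overlapped that of venous-like cells. Fos stood at 207 CPM (180.1 to 237) in KO and 803 CPM (754 to 854) in WT, a ratio of 0.258 (0.221 to 0.299). Egr1 stood at 460.0 CPM (419 to 503) in KO and 1025 CPM (969.9 to 1083) in WT, a ratio of 0.449 (0.403 to 0.499). Junb stood at 564 CPM (518 to 611) in KO and 1047 CPM (991 to 1105) in WT, and Ier2 at 347 CPM (312 to 385) in KO and 639 CPM (596 to 685) in WT. Jun, with 665 CPM in KO and 1040.5 CPM in WT, and Fosb, with 64.5 and 138 CPM, were lower as well. Fosl2 was higher, at 89.9 CPM (72.4 to 110.2) in KO and 48.02 CPM (36.6 to 61.8) in WT, a ratio of 1.87 (1.34 to 2.64). In all, 7 of the 10 members were lower and 1 higher, where 19.8% of the 8585 genes tested were lower and 7.69% higher. The members' median log2 ratio was -0.89, against -0.13 over all genes tested. With cells thinned to 1500 UMIs, the log2 ratio was -3.33 for Fos (otherwise -1.96) and 0.26 for Fosl2 (otherwise 0.90).

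A small cluster led by Aspn, with 5 KO and 9 WT cells, weighed on these values. Its 9 WT cells had 3259.5 CPM of Fos, 2747 CPM of Egr1 and 27 of the 34 Atf3 UMIs of WT fibroblast-like cells. Without that cluster Fos stood at 213 CPM in KO and 690.5 CPM in WT, and Egr1 at 469 and 947 CPM. The WT Fos level without it lay inside the interval of WT venous-like cells (552 to 725 CPM). The gap between the WT Fos intervals of fibroblast-like and venous-like cells thus rests on those 9 cells. Jun then differed by less than 1.5-fold, with a ratio of 0.738 (0.669 to 0.814), and 5 members were lower and 1 higher, where 20.1% of genes were lower and 8.04% higher. Atf3 was at 12.7 CPM in KO and 27.2 CPM in WT with the cluster, and at 13.3 and 5.86 CPM without it, so that its direction rests on those 9 cells. Another cluster is called here by Clec3b, a marker of adventitial fibroblasts among its leading genes, which ranked after Col1a1 and Col3a1. In the Clec3b cluster Fos stood at 253 CPM in KO and 786 CPM in WT. There 6 of the 9 members past the minimum were lower and 1 higher, where 18.3% of genes were lower and 9.69% higher. Within the cluster led by Inmt, a gene of alveolar fibroblasts, Fos stood at 83.3 and 486 CPM and Jun at 482 and 449 CPM. Fos and Egr1 were below WT in both kinds of KO cell, with Fos at 236 CPM and Egr1 at 533 CPM in 49 cells with Y-linked transcripts alone, and at 143 and 264 CPM in 20 cells with Xist alone.

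Smooth muscle-like cells, 54 in KO and 82 in WT, had the same 7 members lower in KO as fibroblast-like cells with the Aspn cluster, where 20% of the 6771 genes tested were lower. Fos stood at 121 CPM (94.01 to 154) in KO and 512 CPM (457 to 573) in WT, a ratio of 0.237 (0.179 to 0.309). Fosb stood at 54.3 CPM (36.6 to 77.5) in KO and 166 CPM (135 to 202) in WT, and Egr1 at 337 CPM (290.1 to 389) in KO and 639 CPM (576 to 706) in WT. Jun stood at 601 CPM in KO and 1168 CPM in WT, Junb at 214 and 408 CPM, and Ier2 at 112 and 212 CPM. Atf3 in WT was higher here than in any other class described, with intervals apart. It stood at 61.6 CPM (42.6 to 86.02) in KO and 118 CPM (91.97 to 149) in WT. The 5 highest cells, however, held 76.5% of its KO UMIs and 69.01% of its WT UMIs. Jdp2 was the 1 member higher in KO, with 24 UMIs in KO and 11 in WT and overlapping level intervals, where 9.79% of genes were higher. The median log2 ratio of the members was -0.93, against -0.11 over all genes tested. At a filter of 1000 genes and 5% mitochondrial UMIs, the log2 ratio was -0.27 for Ier2 (otherwise -0.92) and 0.31 for Atf3 (otherwise -0.94). RNA of other classes also differed between the libraries. All 9 AT2 markers were seen in both, summing to 1329 CPM in KO and 3108 CPM in WT, and all 10 pan-endothelial markers, summing to 143 and 483 CPM. Fibroblast markers ran the other way, with 11 of 13 seen and a sum of 9105 CPM in KO (Lum and Pi16 at 0) and 12 of 13 seen and a sum of 5664 CPM in WT (Pi16 at 0). In fibroblast-like cells the AT2 markers summed to 1366 CPM in KO and 2609.9 CPM in WT, and the erythrocyte markers to 1773 and 72.8 CPM. The part of this RNA in the results of both classes was not tested.

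Set side by side, the members fell into sets by how their KO and WT levels compared. Fos and Egr1 were at least 1.5-fold lower in KO in all 5 classes with 50 cells or more in each library, with WT over KO folds of 1.88 to 7.41 for Fos and 1.88 to 10.9 for Egr1. For Fos, the level intervals overlapped in aCap-like cells, and KO AT2-like cells with Xist alone were at the WT level. For Egr1, KO AT2-like cells with Xist alone were within 1.5-fold of all WT AT2-like cells, with a ratio of 0.757 (0.606 to 0.937). Fosb was lower in the 3 classes where it passed the minimum. Junb, Jun, Ier2 and Atf3 were lower in some classes and within 1.5-fold in the others where they passed the minimum, with Junb lower in 3 classes and Jun, Ier2 and Atf3 in 2 each. Jund was within 1.5-fold in all 5, with log2 ratios of -0.30 to 0.53. Fosl2 and Jdp2 were lower in 0 classes and higher in 2 each. The libraries are shared by all of these ratios, so the classes are not independent of each other.

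**Figure D4:**
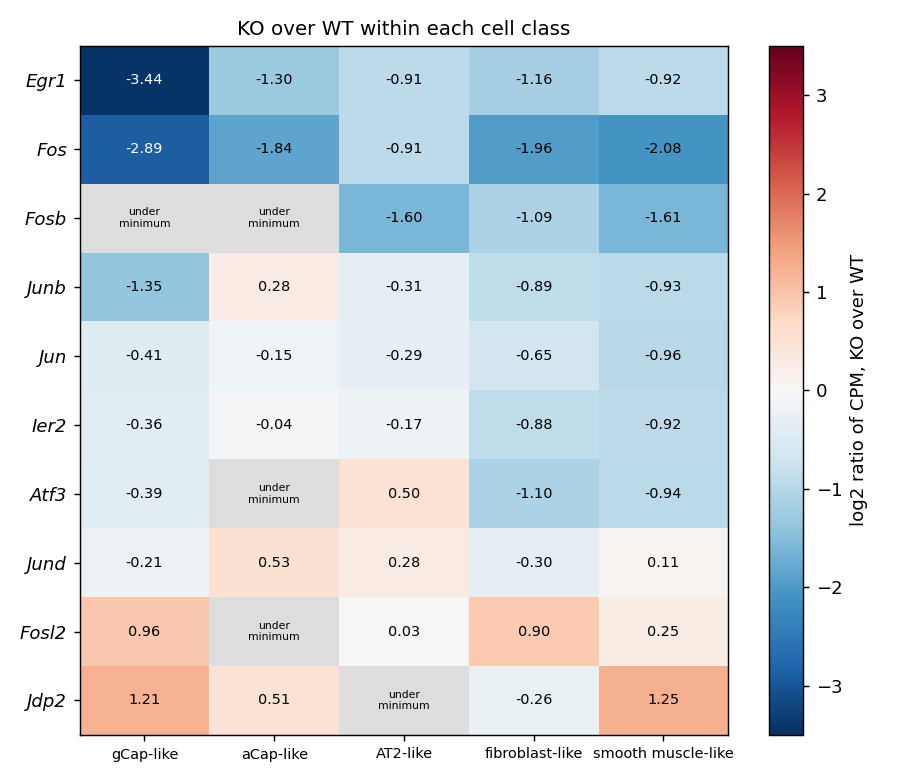
Log2 ratio of CPM, KO over WT, of each gene (rows) in the 5 classes with at least 50 cells in each library (columns). Blue is lower and red higher in KO, and grey marks genes under the minimum of 10 CPM and 20 UMIs. Egr1 and Fos are blue in every column, with Egr1 at -3.44 in gCap-like cells.

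The order of the classes differed by gene. In KO, Egr1 was highest in fibroblast-like cells (460.0 CPM), with an interval apart from the next. Smooth muscle-like (337 CPM), venous-like (201 CPM) and arterial-like cells (143 CPM) followed, each overlapping its neighbour, and the intervals of AT2-like, aCap-like and gCap-like cells overlapped in turn at the low end. In WT, fibroblast-like and venous-like cells (1025 and 929 CPM) had overlapping intervals and smooth muscle-like, arterial-like and gCap-like cells followed with intervals apart, while AT2-like and aCap-like cells overlapped at the low end. For Egr1, gCap-like cells thus stood below AT2-like cells in KO and above them in WT, with intervals apart in both libraries. Jun ran the other way, with endothelial classes at the top in both libraries. In KO it stood at 1936 CPM in aCap-like, 1876 in venous-like and 1394 in gCap-like cells, against 665 in fibroblast-like and 228 in AT2-like cells. In WT venous-like cells led at 2784 CPM and AT2-like cells were lowest at 279 CPM. Jdp2 was lowest in AT2-like cells of both libraries (6.69 CPM in KO and 5.46 CPM in WT), though in KO the wide arterial-like interval overlapped it. Over 13 class and library points, the correlation of a member's log2 level with the mean of the other 9 was 0.92 for Junb, 0.89 for Egr1 and 0.85 for Fos, but 0.36 for Jun, 0.24 for Fosl2 and 0.01 for Jdp2. These points share 2 libraries and are a description only.

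The share of cells with a transcript differed as well for some of the genes. With every cell reduced at random to 1500 UMIs, and 20 KO and 76 WT gCap-like cells too shallow for it, 1.63% (0.445 to 4.11) of KO and 16.4% (14.1 to 18.96) of WT gCap-like cells had an Egr1 UMI. Without thinning it was 6.77% and 27.5%, at median depths of 4834.5 and 3794 UMIs. In fibroblast-like cells 8.75% (3.59 to 17.2) of KO and 40.2% (31.7 to 49.04) of WT cells had a Fos UMI, with 5 KO and 2 WT cells left out, and 52.9% and 66.4% unthinned. In AT2-like cells 1.29% (0.519 to 2.63) of KO and 3.21% (2.11 to 4.67) of WT cells had a Fosb UMI, with overlapping intervals and 55 KO and 16 WT cells left out. Jdp2 was seen in 16.3% (11.9 to 21.5) of KO and 7.02% (5.46 to 8.86) of WT gCap-like cells, and in 1.29% (0.519 to 2.63) and 0.989% (0.428 to 1.94) of AT2-like cells, where the intervals overlap. Jun was seen in 85.4% (80.3 to 89.5) of KO and 88.2% (85.98 to 90.2) of WT gCap-like cells, shares that overlap. No Fos UMI was left in the 68 thinned KO aCap-like cells, which allows a share of cells with a UMI of up to 4.41%. A class known to lack these genes was not at hand as a background, and the part of free RNA from fibroblast-like cells in these shares was not tested.

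**Figure D5:**
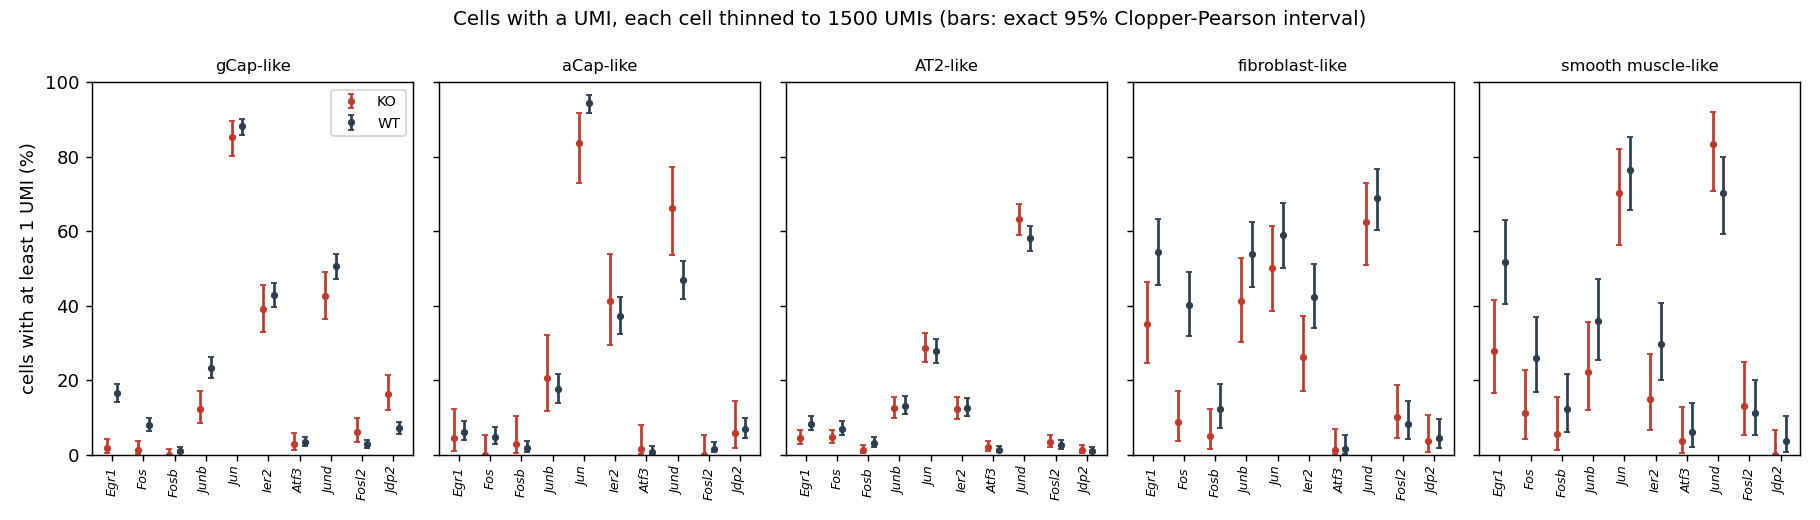
Share of cells with at least 1 UMI of each gene after thinning to 1500 UMIs per cell, by class, with KO in red left of WT in dark blue and exact 95% Clopper-Pearson intervals. Egr1 is seen in 1.63% of KO and 16.4% of WT gCap-like cells, while the Jun shares lie close together.

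Egr1 and Junb were seen more often in cells that also had a Fos UMI, but not with intervals apart in every class. The intervals overlapped for both genes in WT venous-like and KO AT2-like cells, and for Junb in WT AT2-like and smooth muscle-like cells. Of thinned WT gCap-like cells, 31.5% (21.1 to 43.4) of the 73 with a Fos UMI had an Egr1 UMI, against 15.1% (12.8 to 17.7) of the 853 without. For Junb the shares were 46.6% (34.8 to 58.6) and 21.2% (18.5 to 24.1). In WT fibroblast-like cells 73.6% (59.7 to 84.7) of the 53 with Fos had Egr1, against 41.8% (30.8 to 53.4) of the 79 without. Jun was near its ceiling in WT gCap-like cells, seen in 86.3% (76.2 to 93.2) of those with Fos and 88.4% (86.1 to 90.5) of those without. It was seen in 57.1% (43.2 to 70.3) of the 56 WT AT2-like cells with Fos and 25.5% (22.4 to 28.8) of the 753 without, and in 75.5% (61.7 to 86.2) and 48.1% (36.7 to 59.6) of WT fibroblast-like cells. In KO gCap-like cells 3 had a Fos UMI after thinning, too few for such a share. Of KO AT2-like cells, 8% (0.984 to 26.0) of the 25 with Fos had Egr1, against 4.24% (2.68 to 6.35) of the 519 without. For Junb these shares were 20% (6.83 to 40.7) and 12.1% (9.46 to 15.3). A UMI of at least 3 of the 10 members was found in 31.3% (25.6 to 37.5) of KO and 42.5% (39.3 to 45.8) of WT gCap-like cells, in 12.1% (9.51 to 15.2) and 13.5% (11.2 to 16.02) of AT2-like cells, and in 46.2% (35.03 to 57.8) and 61.4% (52.5 to 69.7) of fibroblast-like cells. In aCap-like cells KO lay above WT, at 38.2% (26.7 to 50.8) and 32.98% (28.3 to 37.9), with overlapping intervals.

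Genes that act around AP-1 did not move as one. In gCap-like cells, where 7.84% of all genes tested were lower in KO and 3.67% higher, 6 of the 29 other immediate early genes past the minimum (36 listed) were lower and 6 higher, with a median log2 ratio of -0.21. Of the 17 other AP-1 and basic leucine zipper genes past the minimum (21 in the files) 1 was lower and 2 were higher. Of 9 MAP kinase phosphatases and feedback genes (13 listed) 0 were lower and 1 was higher, and of 16 upstream kinases and factors (18 listed) 1 was lower and 0 were higher. Of 15 heat shock chaperones (16 listed) 3 were lower and 0 were higher. The 3 genes of these lists with the widest differences on the lower side were the chaperones. Hspa1a, an inducible HSP70, stood at 14.3 CPM in KO and 129.5 CPM in WT. Its near-identical copy Hspa1b stood at 11.9 and 89.03 CPM, and reads may be shared between them. The small heat shock protein gene Hspb1 stood at 42.97 and 147 CPM. On the higher side were Cebpb, a basic leucine zipper factor of inflammation, at 60.5 CPM in KO and 16.8 CPM in WT, Dusp8, a phosphatase of JNK and p38, at 51.7 and 17.5 CPM, and Crem, a cAMP-responsive factor, at 59.7 and 27.4 CPM.

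In AT2-like cells, 4 of the 26 other immediate early genes past the minimum were lower in KO and 5 higher, and of the 15 chaperones 2 were lower and 0 higher, where 2.38% of all genes tested were lower and 1.90% higher. Hspa1a stood at 20.2 CPM in KO and 55.3 CPM in WT, Hspa1b at 21.1 and 46.9 CPM, and Klf2, a Krüppel-like factor, at 11.9 and 25.7 CPM. Id3, an inhibitor of helix-loop-helix factors and a BMP target, stood at 58.6 CPM in KO and 19.9 CPM in WT, the clock gene Per1 at 67.9 and 35.5 CPM, and Dusp8 at 20.5 and 9.998 CPM. In aCap-like cells, 2 of 29 other immediate early genes were lower and 8 higher, where 13.0% of all genes were lower and 7.92% higher. In fibroblast-like cells, 10 of 34 were lower and 3 higher, where 19.8% of all genes were lower and 7.69% higher. In smooth muscle-like cells, 13 of 30 were lower and 4 higher, where 20% of all genes were lower and 9.79% higher.

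Of 3575 genes outside the lists with a mean of at least 50 CPM, those whose log2 level followed the mean of the 10 members most closely over the 13 class and library points were Emp3 (Pearson r of 0.93), Mrpl13 (0.92), Vcam1 (0.91), Ltbp4 (0.91), Atp2b4 (0.91), Ybx3 (0.88), Tshz2 (0.88) and Mrps26 (0.87). Emp3 ranged from 1.91 to 451 CPM over those points and Vcam1 from 0 to 234 CPM. Points of 1 library share its depth and its free RNA.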

How the data were processed

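Raw UMI counts per gene and barcode were deposited by the authors for 1 KO and 1 WT library, with Cell Ranger 3.0.1 and the mm10 build named in the submitters' processing notes. Barcodes under 500 genes or above 10% mitochondrial UMIs were dropped. Doublets called by Scrublet (scanpy 1.11.5) were removed, 12 in KO and 37 in WT. Cells were clustered on 1305 variable genes, without the 10 genes, the gene lists and 658 genes that differed between the libraries (30 components, 20 neighbors, leidenalg 0.10.2 at resolution 1). Clusters were named from marker lists, with at least 3 markers found. CPM are the UMIs of a gene over all UMIs of its class in 1 library. Levels have exact Poisson, ratios conditional binomial and shares Clopper-Pearson intervals (scipy 1.17.1). Genes compared had a mean of at least 10 CPM and 20 UMIs over both libraries, and a difference was counted at 1.5-fold, in classes with at least 50 cells in each library. The total was 17864581 UMIs in KO and 25667220 in WT. The members and lists were chosen with earlier results of these data known. Genes of the other lists were named by the 3 widest ratios in each direction in gCap-like and AT2-like cells, and look-alike genes by the 8 highest correlations of log2(CPM + 10). The clusters within gCap-like and fibroblast-like cells were set apart after the data had been seen. Of the gene identifiers, 98.7% are in GENCODE M21. Every symbol of the gene lists was found except Cebpd.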

Additional observations from a re-analysis of the deposited data

Results flagged for a closer look

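Barcodes with more than 10 and up to 20% mitochondrial UMIs lay outside the comparisons. Among those that clustered with AT2-like cells, Egr1 stood at 181 CPM (132 to 241) in 32 KO barcodes and 71.5 CPM (41.6 to 114) in 26 WT barcodes, a signal in data that the comparisons did not use. The 46 KO UMIs were in 9 barcodes, and the 5 highest held 87.0% of them. In WT the 5 highest held 88.2% of 17 UMIs.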

How the results depend on the processing

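Counts of members past 1.5-fold were within 1.5 times the reported count in 107 of the alternatives tried and moved in 17. In aCap-like cells the count lower in KO was 1 with intervals apart and 1 with thinned cells, and the count higher in KO was 1 with cells weighed equally, with thinned cells, with KO cells of Y-linked transcripts alone and with doublets kept. In AT2-like cells the count lower was 1 with Xist alone in both libraries, and the count higher was 1 there, 1 with cells weighed equally and 1 at a filter of 1000 genes and 5% mitochondrial UMIs. In fibroblast-like cells the count higher was 0 with thinned cells, 2 at that filter and 0 in the Inmt cluster alone, where 4 were lower. In smooth muscle-like cells the count higher was 0 with intervals apart and 0 with thinned cells, and in the Esm1 cluster of gCap-like cells it was 1. Of the log2 ratios under alternatives, 527 lay within the counting interval of the reported one, 84 lay outside it with the same sign or for a member not past 1.5-fold, and 9 of members past 1.5-fold changed sign. Of the shares, 71 lay within the interval and 129 outside. Egr1 in gCap-like cells was -4.31 with KO cells of Y-linked transcripts alone. Fos in AT2-like cells was 0.0572 with Xist alone. Jun in fibroblast-like cells was 0.10 in the Inmt cluster. Atf3 in smooth muscle-like cells was 0.31 at the stricter filter. Atf3 in fibroblast-like cells was 0.14 thinned, 0.98 at a filter of 200 genes and 20% mitochondrial UMIs, 0.96 at the stricter filter, 1.23 in the Clec3b cluster, 2.32 in the Inmt cluster and 1.18 without the Aspn cluster. The cause was not tested. No paired analysis was possible because each group was 1 library. Levels resting on few UMIs, such as Fos in KO aCap-like cells, are limited by depth.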
